A study of Homo sapiens with 2 samples.

Results

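The genes described here encode the secreted and membrane-bound metalloproteinases of the matrix and cell surface, with their inhibitors: matrix metalloproteinases (MMPs), ADAMs, ADAMTS proteases, the ADAMTS-like ADAMTSL proteins and the tissue inhibitors of metalloproteinases (TIMPs). They were taken by symbol from the deposited table of counts per gene, which gave 71 of 18944 genes. RNA had been sequenced from H1993, an established line of lung adenocarcinoma cells whose MET gene, for a receptor tyrosine kinase, is amplified. 1 library came from the parental line, labelled as treated with DMSO. The other came from a derivative of the same line that had been selected for resistance to the MET kinase inhibitor PHA665752, in concentrations raised from 1 nM to 1 µM, and it is labelled as treated with PHA665752. The derivative had been kept at 1 µM and then grown for 1 week in medium free of drug, and whether drug was present at RNA extraction, or whether the derivative is a single clone, is not given in the sources used here. The comparison asks how the resistant derivative differs from the line it came from.

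MMPs are zinc enzymes that cut collagens, laminins and other matrix proteins. Most are secreted as inactive precursors, and the membrane-type MMPs stay anchored at the cell surface. ADAMs are transmembrane proteins, many of them proteases that release the outer parts of other membrane proteins, such as ligands of the EGF receptor and the ectodomain of MET itself. ADAMTS proteases are secreted and act on proteoglycans and procollagens, ADAMTSL proteins resemble them but lack the protease domain, and TIMPs bind the active site of these enzymes with differing preference. In epithelial tumours, stromal cells are a large source of MMPs, and a culture of the line alone has no such cells.

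Of the 71 genes, 19 had 0 counts in both libraries, 22 were detected but stayed under 1 CPM (counts scaled to the size of the library) in both, and 30 reached 1 CPM in at least 1 library and were compared. A gene was called higher or lower in the resistant library when its log2 ratio (resistant over parental, 0.5 added to the counts) was 1 or more in size and the exact 95% counting interval excluded 0. By this rule 8 of the 30 were higher and 5 lower, and 17 passed neither way. That is 26.7% and 16.7%, where 12.1% and 8.29% of all 12245 tested genes were called. In 6 of the 8 higher and 2 of the 5 lower genes, 1 library was under 1 CPM, so the gene entered only through the library where it was high and the direction was fixed by that. When genes were instead taken by a mean of at least 1 CPM over both libraries, 6 of 28 were higher and 5 lower, where 11.2% and 7.87% of all genes were. That mean does not remove the limit. ADAM12, ADAM23, ADAMTS3, TIMP4, MMP17 and MMP19 still reached it only through the 1 library where they were high. Without the filter 9 of 52 detected genes were higher and 5 lower (11.2% and 7.23% of all genes), and with at least 5 CPM it was 4 and 3 of 18 (9.38% and 7.01%). With the whole interval beyond 2-fold, 7 were higher and 3 lower (8.96% and 5.35%), and at 4-fold 6 and 3 (6.32% and 2.93%). By the deposited log2 values, only 3 of the 30 were higher, with 2 lower (7.56% and 4.83%). The median log2 ratio of the 30 was 0.11 (0.00 over all tested genes), and the median size of the ratio was 0.89 (0.41 over all tested genes).

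Each group has a single library, so no difference could be checked against replicates. No p-value is given, each interval covers counting error in these 2 libraries only, and in such bulk RNA fewer cells that express a gene and less RNA per cell cannot be told apart.

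**Figure D1:**
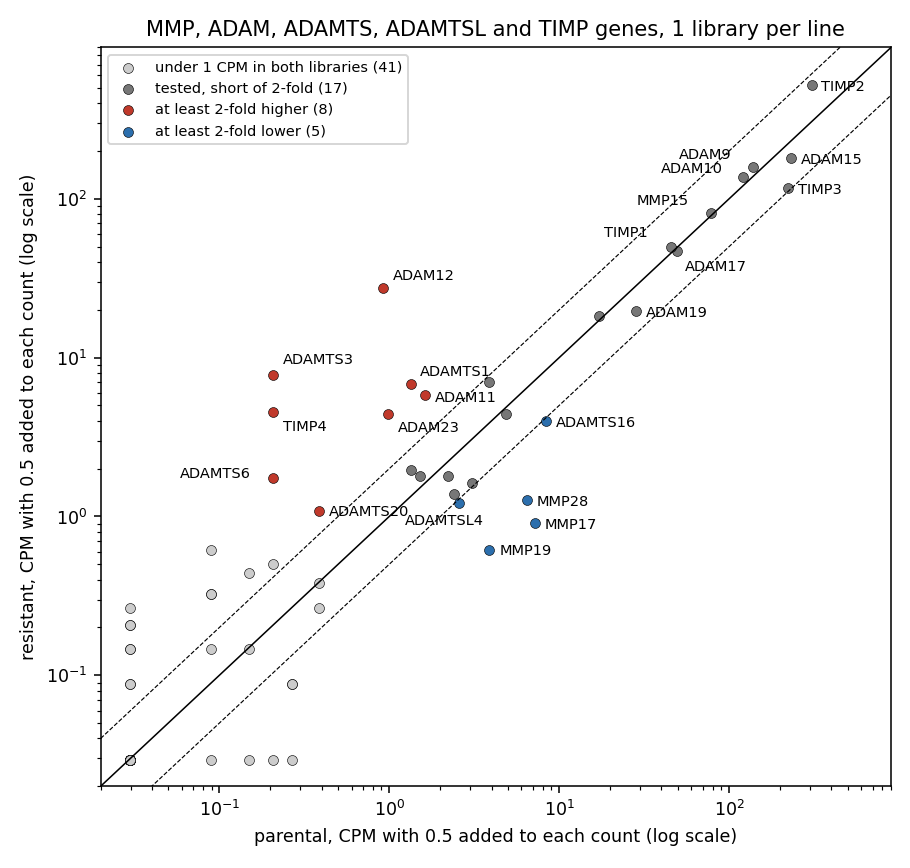
Level of each of the 71 genes in the parental (horizontal) and resistant (vertical) library, in CPM with 0.5 added to each count, both axes logarithmic; the solid line marks equality and the dashed lines 2-fold. The abundant genes lie between the dashed lines, and the 13 called genes are all under 30 CPM in both libraries.

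The libraries held 16723181 (parental) and 17086748 (resistant) counts. MET, the target of the drug, had 4859 CPM in the parental line and 3054 CPM in the resistant library. All 6 epithelial marker genes listed were detected, with KRT8 and KRT18 at 1964 CPM or more in both libraries. Of 8 fibroblast markers, 7 were detected, with sums of 20.9 and 15.2 CPM that were almost all COL1A1 (348 and 242 counts); COL1A2, COL3A1, LUM, FAP, PDGFRA and PDGFRB had 0 to 6 counts and DCN had 0. Among 5 endothelial markers CDH5 had 5 and 495 counts, while PECAM1, VWF, KDR and TEK had 0 or 1. Among 7 leukocyte markers CD68 had 1447 and 537 counts, CD14 had 5 and 33, PTPRC had 21 and 7, and the other 4 had 0 to 4. Summed levels were 0.356 and 29.2 CPM for the endothelial and 87.8 and 34.3 CPM for the leukocyte markers, and the part of these cells in the results below was not tested.

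The best-known secreted MMPs of invasive tissue were at or near 0 in both libraries. The collagenase genes MMP1, MMP8 and MMP13 together had 6 counts in the parental line and 1 in the resistant library. The gelatinase genes MMP2 and MMP9, whose enzymes degrade basement membrane collagen, had 1 and 1 counts in the parental line and 2 and 5 in the resistant one. Of the stromelysin genes, MMP3 and MMP10 had 0 counts and MMP11 had 0 and 1, and of the matrilysin genes MMP26 had 0 and MMP7 had 0 and 1. MMP14, the membrane-type enzyme that activates pro-MMP2, had 4 and 1 counts. At this depth a count of 0 allows up to 0.178 CPM in the parental line and 0.177 CPM in the resistant library, so differences among these genes were not detectable.

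9 of these MMP genes stand side by side on chromosome 11, in the order MMP7, MMP20, MMP27, MMP8, MMP10, MMP1, MMP3, MMP12 and MMP13 in the RefSeq annotation. Across the whole block there were 6 counts in the parental line and 2 in the resistant library, and 6 of the 9 genes had 0 in both.

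The promoters of 3 called members and 1 silent member are shown for their CG content. Each is the run of 250 bases before the RefSeq start site (GRCh38.p14), on the strand of the gene, with CG dinucleotides in capitals. ADAM12 (chr10:126388478-126388727, minus strand), ADAMTS3 (chr4:72569222-72569471, minus strand) and TIMP4 (chr3:12158913-12159162, minus strand) had the 3 highest log2 ratios of the family by counts, and MMP10 (chr11:102780629-102780878, minus strand) had 0 counts in both libraries.
ADAM12: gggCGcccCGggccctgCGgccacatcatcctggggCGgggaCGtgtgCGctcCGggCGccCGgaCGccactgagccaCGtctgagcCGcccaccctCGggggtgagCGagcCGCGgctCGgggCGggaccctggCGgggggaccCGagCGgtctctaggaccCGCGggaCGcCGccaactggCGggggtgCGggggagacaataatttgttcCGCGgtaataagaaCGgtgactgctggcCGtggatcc
ADAMTS3: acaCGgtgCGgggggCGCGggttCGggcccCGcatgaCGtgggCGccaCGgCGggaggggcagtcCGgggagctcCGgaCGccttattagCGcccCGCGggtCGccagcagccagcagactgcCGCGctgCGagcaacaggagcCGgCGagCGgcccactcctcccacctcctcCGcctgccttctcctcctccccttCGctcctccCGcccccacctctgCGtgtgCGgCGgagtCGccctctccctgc
TIMP4: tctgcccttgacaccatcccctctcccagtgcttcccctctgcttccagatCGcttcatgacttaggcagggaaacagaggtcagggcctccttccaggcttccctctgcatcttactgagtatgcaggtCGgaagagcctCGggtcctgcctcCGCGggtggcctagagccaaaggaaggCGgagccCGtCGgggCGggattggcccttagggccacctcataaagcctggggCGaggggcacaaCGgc
MMP10: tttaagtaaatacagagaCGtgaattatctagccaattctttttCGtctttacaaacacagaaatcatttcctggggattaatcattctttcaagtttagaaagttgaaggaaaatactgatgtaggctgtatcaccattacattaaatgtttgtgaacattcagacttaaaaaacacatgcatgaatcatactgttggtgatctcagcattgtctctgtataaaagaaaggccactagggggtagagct
ADAM12 held 31 CG dinucleotides in this run, ADAMTS3 held 30, TIMP4 held 11 and MMP10 held 2.

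RefSeq promoters (250 bases before to 50 after the start) were matched for 44 of the 71 genes. A promoter was called CpG-rich with a GC content of at least 50% and at least 0.6 of the CG dinucleotides that its base composition would give. The median GC content was 73.3% over 20 tested members and 42.5% over 12 members at 0 counts in both libraries, beside 65.7% and 52.0% for such genes of the whole table. The CpG-rich class held 17 of the 20 tested members, where 81.4% of the tested genes of the table were in it. It held 4 of the 12 silent members, where 23.0% of the genes of the table at 0 counts were in it. Of the called members with a promoter, 4 of 6 higher ones (ADAM12, ADAM23, ADAMTS3 and ADAMTS20) and the 1 lower one (ADAMTSL4) were CpG-rich, and TIMP4 and ADAMTS6 were not.

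AP-1, the dimer of FOS and JUN proteins known for driving MMP genes, binds TGAGTCA or TGACTCA, each the reverse complement of the other. This motif was in 1 of the 44 promoters, that of MMP7, and in 3.66% of 15843 promoters of protein-coding genes. Of the MMP genes, MMP1, MMP2, MMP3, MMP9, MMP12, MMP13, MMP16, MMP17, MMP19, MMP25 and MMP28 were not among the matched promoters. It started 67 bases before the start site of MMP7 (chr11:102530748-102530997, minus strand), shown with the motif in capitals.
MMP7: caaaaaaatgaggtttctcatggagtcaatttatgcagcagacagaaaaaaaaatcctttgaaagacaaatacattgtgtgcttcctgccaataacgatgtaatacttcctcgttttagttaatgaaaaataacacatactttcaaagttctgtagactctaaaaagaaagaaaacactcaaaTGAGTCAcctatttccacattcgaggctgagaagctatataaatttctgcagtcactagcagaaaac
The gene with this motif had 0 counts in the parental line and 1 in the resistant library. A match or its absence in this window is a description of letters and says nothing of binding.

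MMP15 made up most of the MMP reads. It encodes MT2-MMP, a membrane-type enzyme, and had 1317 counts (78.2 CPM) in the parental line and 1380 counts (81.3 CPM) in the resistant library, a log2 ratio of 0.06 (95% counting interval -0.05 to 0.16). The 2 libraries were thus close for this gene. Its share of all MMP counts was 78.3% (exact Clopper-Pearson 95% interval 76.2 to 80.2%) in the parental line and 93.6% (92.3 to 94.8%) in the resistant library.

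The other 4 MMP genes that were tested all had lower levels in the resistant library, and 3 of them passed the rule. That is 60.0% of the 5 tested MMP genes, where 8.29% of all tested genes were called lower. MMP17, which encodes the lipid-anchored MT4-MMP, had 121 counts in the parental line and 15 in the resistant library and was 8.13-fold lower (4.74 to 15.0). MMP28, the gene of epilysin, an MMP of epithelia, had 109 and 21 counts and was 5.23-fold lower (3.26 to 8.79). MMP19 had 65 and 10 counts and was 6.55-fold lower (3.35 to 14.3). All 3 were scarce already in the parental library, at 7.19, 6.47 and 3.86 CPM. MMP24, the gene of another membrane-type enzyme, had 51 and 27 counts and a log2 ratio of -0.92, short of the rule. None of the 5 tested MMP genes was called higher, where 12.1% of all tested genes were. MMP17 and MMP19 were under 1 CPM in the resistant library, so the filter fixed their direction. MMP28 shares part of its span with TAF15 on the opposite strand, with no overlap of exons in GENCODE 29, and TAF15 had 3852 and 4455 counts.

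**Figure D2:**
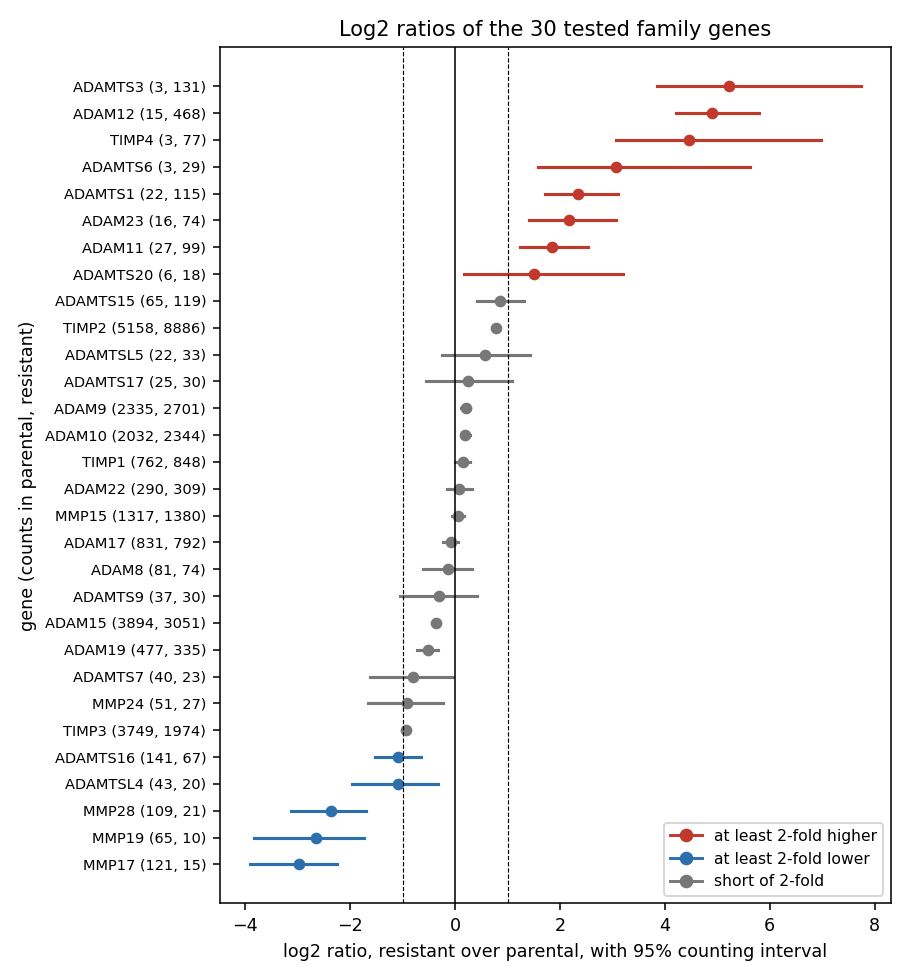
Log2 ratio of resistant over parental for the 30 tested genes, with the exact 95% counting interval as a line and the counts of both libraries beside each symbol; dashed lines mark 2-fold. ADAMTS3, ADAM12 and TIMP4 lie at 4.46 or above, and MMP17, MMP19 and MMP28 at -2.36 or below.

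Of 10 tested ADAM genes, 3 scarce ones (ADAM11, ADAM12 and ADAM23) were higher in the resistant library and none was lower. Over all tested genes 12.1% were called higher and 8.29% lower. ADAM12 and ADAM23 were under 1 CPM in the parental line, so the filter fixed their direction. The other 7 ADAM genes, the abundant ones and the scarce ADAM8, stayed within 2-fold. ADAM9, ADAM10, ADAM15 and ADAM17, all active sheddases or surface proteases, took 90.9% of ADAM counts (90.3 to 91.5%) in the parental line and 86.6% (86.0 to 87.3%) in the resistant library. None of these 4 passed the rule. ADAM10, the sheddase of NOTCH receptors and E-cadherin, had 2032 and 2344 counts and a log2 ratio of 0.19 (0.11 to 0.28). ADAM17, the sheddase of TNF and of TGFA, had 831 and 792 counts and a ratio of -0.08 (-0.22 to 0.06). Exons of ADAM17 overlap those of IAH1 on the other strand, a gene with 549 and 450 counts, so reads could be split between them. ADAM9 had 2335 and 2701 counts and a ratio of 0.20 (0.12 to 0.28). ADAM15, whose protein carries an integrin-binding motif, was the most abundant of the 4 with 3894 and 3051 counts and a ratio of -0.36 (-0.43 to -0.30).

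ADAM12 stood apart from the other proteolytic ADAMs. It encodes a protease that cleaves insulin-like growth factor binding proteins and ligands of the EGF receptor and is known from placenta, regenerating muscle and mesenchymal cells. It had 15 counts (0.891 CPM) in the parental line and 468 counts (27.6 CPM) in the resistant library, 30.9-fold higher (18.6 to 55.7). Its share of all ADAM counts was 0.15% (0.084 to 0.25%) in the parental line and 4.56% (4.17 to 4.98%) in the resistant library. It was the 1 gene of the family to go from under 1 CPM to over 10 CPM. Since it was under 1 CPM in the parental line, the filter fixed its direction.

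ADAM19, the closest relative of ADAM12 named here, had 477 counts in the parental line and 335 in the resistant library, a log2 ratio of -0.52 (-0.73 to -0.32). ADAM8, an ADAM of leukocytes and inflamed epithelium, had 81 and 74 counts and a ratio of -0.14 (-0.62 to 0.33). Neither passed the rule, and the interval of ADAM8 held 0. ADAM20 and ADAM28 had 0 and 3 counts each, and ADAM21, ADAM30 and ADAM33 had 0 in both.

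Of 8 ADAM genes whose proteins lack an active protease site, 3 were tested and 2 were higher (66.7%, where 12.1% of all tested genes were). ADAM11, ADAM22 and ADAM23 are the neuronal members of this group, known as partners of the secreted protein LGI1 at synapses. ADAM11 had 27 and 99 counts and was 3.64-fold higher (2.36 to 5.79). ADAM23 had 16 and 74 counts and was 4.59-fold higher (2.65 to 8.44). It was at 0.950 CPM in the parental line, so the filter fixed its direction. ADAM22, the most abundant of the 3, had 290 and 309 counts and a log2 ratio of 0.08 (-0.16 to 0.32), so its ratio lay apart from those of the other two. ADAM32 had 2 and 7 counts, and the genes of sperm ADAMs, ADAM2, ADAM7, ADAM18 and ADAM29, had 0 in both libraries.

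**Figure D3:**
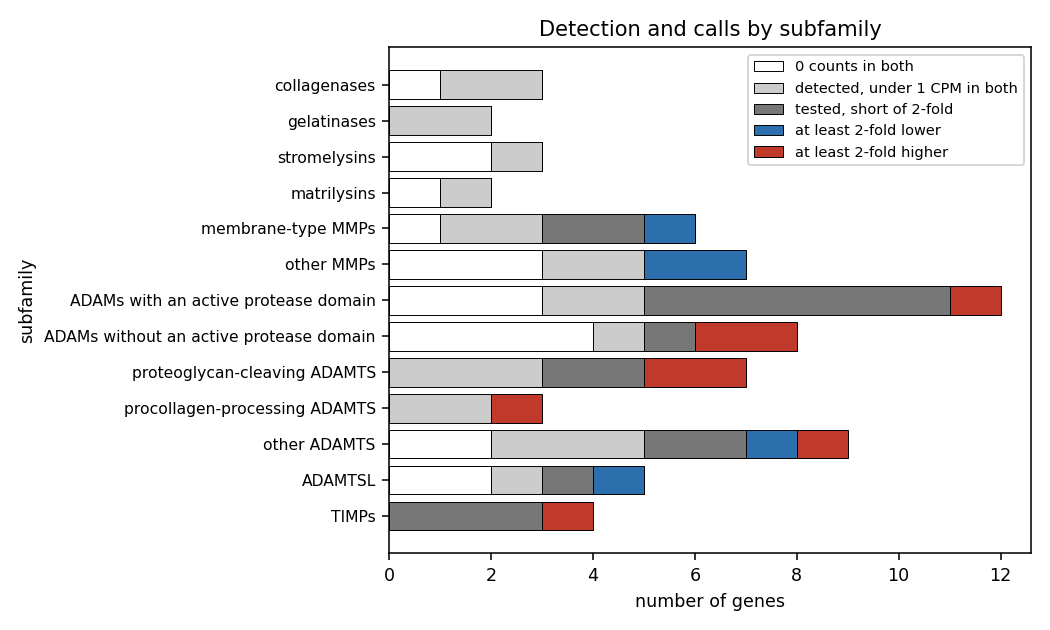
Number of genes in each subfamily by class: 0 counts in both libraries, detected under 1 CPM, tested and short of 2-fold, and called lower or higher in the resistant library. The collagenases, gelatinases, stromelysins and matrilysins have no tested gene. The MMPs have called genes on the lower side only, 3 of 5 tested, and 2 of the 3 were under 1 CPM in the resistant library.

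Among the 19 ADAMTS genes 9 were tested, with 4 higher (44.4%) and 1 lower (11.1%) in the resistant library, all at low level, where 12.1% and 8.29% of all tested genes were called. ADAMTS3, ADAMTS6 and ADAMTS20 were under 1 CPM in the parental line, so the filter fixed their direction. Together the 19 had 358 counts (21.3 CPM) in the parental line and 595 counts (35.1 CPM) in the resistant library.

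Of the procollagen-processing enzymes, ADAMTS3 was the 1 tested gene. Its ratio rests on few parental counts, its interval holds that of ADAM12, and the differences of the deposited log2 values were 2.18 for ADAM12, 1.86 for TIMP4 and 1.17 for ADAMTS3. The protein trims the amino-terminal propeptide of procollagens and matures the lymphatic growth factor VEGFC. It had 3 counts (0.178 CPM) in the parental line and 131 counts (7.72 CPM) in the resistant library, 43.3-fold higher with a wide interval of 14.5 to 213. Its share of ADAMTS counts was 0.838% (0.173 to 2.43%) in the parental line and 22.0% (18.7 to 25.6%) in the resistant library. ADAMTS2 had 4 and 0 counts and ADAMTS14 had 1 and 10, both under 1 CPM. ADAMTS3 exons overlap an antisense transcript in GENCODE 29 that has no value here.

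Of the enzymes that cut proteoglycans such as aggrecan and versican, ADAMTS1 was 5.18-fold higher (3.27 to 8.59), with 22 counts in the parental line and 115 in the resistant library. ADAMTS20, which acts in pigment cell development, had 6 and 18 counts and was 2.98-fold higher (1.13 to 9.16), so its interval nearly reached equality. ADAMTS15 had 65 and 119 counts and a log2 ratio of 0.86 (0.41 to 1.32), and ADAMTS9 had 37 and 30 counts. ADAMTS4 (1 and 0), ADAMTS5 (0 and 2) and ADAMTS8 (1 and 5) were at the edge of detection, which puts ADAMTS4 and ADAMTS5, the main aggrecan-cleaving enzymes of cartilage, at or near 0 in both libraries.

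Among the other ADAMTS genes, ADAMTS6 had 3 and 29 counts and was 9.59-fold higher (2.97 to 49.2). ADAMTS16, known from kidney and gonad development, was the most abundant ADAMTS gene of the parental library with 141 counts, and at 67 counts in the resistant library it was 2.12-fold lower (1.58 to 2.88). The interval of ADAMTS16 reached below 2-fold. ADAMTS7, with 40 and 23 counts, and ADAMTS17, with 25 and 30, did not pass. ADAMTS10, ADAMTS13 and ADAMTS18 had 0 to 8 counts, and ADAMTS12 and ADAMTS19 had 0.

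Of the ADAMTSL genes, ADAMTSL4, whose protein binds fibrillin microfibrils in the eye, had 43 and 20 counts and was 2.17-fold lower (1.25 to 3.89). Its exons overlap the antisense gene ADAMTSL4-AS1, which has no value here. ADAMTSL5 had 22 and 33 counts and did not pass. ADAMTSL3 had 3 and 0 counts, and ADAMTSL1 and ADAMTSL2 had 0.

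The inhibitor genes TIMP1, TIMP2 and TIMP3 were among the most abundant of the family, and TIMP4 was scarce. TIMP2, which also takes part in activation of pro-MMP2 by MMP14, had 5158 counts (306 CPM) in the parental line and 8886 counts (524 CPM) in the resistant library, 1.71-fold higher (1.65 to 1.77) and short of the rule. TIMP3, the matrix-bound inhibitor of ADAM17 and of ADAMTS4 and ADAMTS5, had 3749 counts (223 CPM) and 1974 counts (116 CPM), 1.92-fold lower (1.81 to 2.02), with an interval that reached past 2-fold. TIMP1, the soluble inhibitor of most secreted MMPs, had 762 and 848 counts and a log2 ratio of 0.14. TIMP2 and TIMP3 thus lay on opposite sides of equality by amounts far beyond counting error, while neither was called.

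TIMP4, the inhibitor best known from heart, had 3 counts in the parental line and 77 in the resistant library, 25.5-fold higher (8.39 to 126). It remained at 4.54 CPM, and it was under 1 CPM in the parental line, so the filter fixed its direction. TIMP1, TIMP3 and TIMP4 each lie in an intron of a synapsin gene on the opposite strand. SYN1 had 0 and 2 counts, SYN3 had 0 and 0, and SYN2, the host of TIMP4, had 1 and 2.

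Levels of different genes were compared per length with the deposited log2 values, taken as 2 to that value minus 1. For 91.9% of 9483 genes with at least 100 counts in both libraries, this value per count was the same in both to within 2%, apart from 1 common factor. Its scale with length is inferred here and is not stated by the submitters. On this scale the order in the parental library was TIMP2 (85.5), ADAM15 (82.9), TIMP1 (61.6), TIMP3 (40.6), ADAM9 (34.3), ADAM10 (24.1), MMP15 (17.8) and ADAM17 (14.2). In the resistant library it was TIMP2 (146), TIMP1 (68.4), ADAM15 (64.9), ADAM9 (39.4), ADAM10 (27.5), TIMP3 (21.2), MMP15 (18.5) and ADAM17 (13.4). Without replicates no spread can be put on the order of neighbours such as TIMP2 and ADAM15 in the parental library.

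Summed per length, TIMPs went from 188 in the parental line to 239 in the resistant library, ADAMs from 165 to 159, MMPs from 28.2 to 21.1 and ADAMTS genes from 3.96 to 6.43. TIMP2 made up 45.5% of the TIMP sum in the parental line and 61.2% in the resistant library, and TIMP3 made up 21.6% and 8.87%. TIMP4 made up 0.064% and 1.29%. ADAM12, at 4.19 in the resistant library, stayed well under ADAM17 at 13.4 on the same scale.

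**Figure D4:**
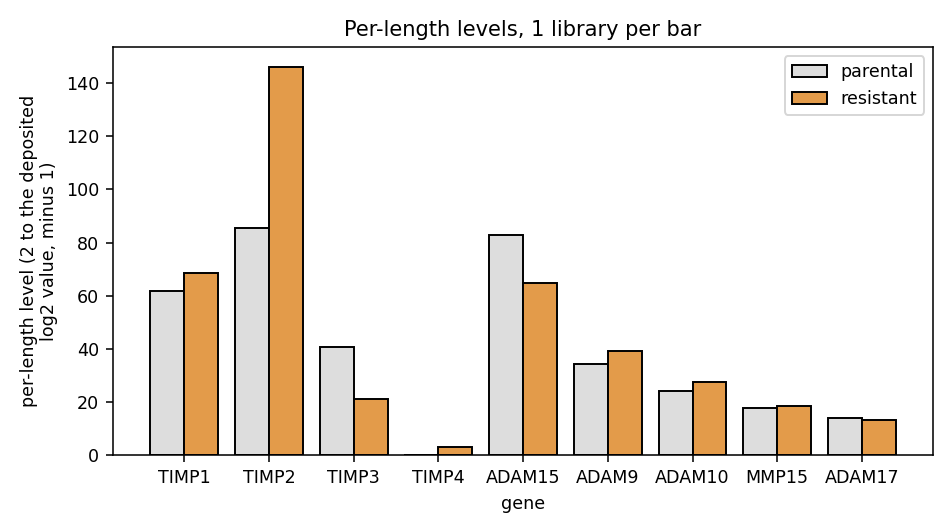
Per-length level (2 to the deposited log2 value, minus 1) of the 4 TIMP genes and of the 5 most abundant protease genes, 1 bar per library and no error bar since each group has 1 library. TIMP2 has the highest bar in both libraries, at 85.5 and 146, and TIMP3 has 40.6 and 21.2.

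Genes that act with this family were taken as 6 further lists, whose counts stand beside the same 12.1% higher and 8.29% lower over all tested genes. Proteases that activate it, and the plasminogen system, had 2 of 10 tested genes higher and 4 lower, and 5 of these 6 (PLAU, SERPINB2, HPN, PCSK5 and PLAT) were under 1 CPM in 1 library, which fixed their direction. The convertase FURIN cuts the propeptide of membrane-type MMPs, ADAMs and ADAMTS proteases and had 2197 and 2537 counts, a log2 ratio of 0.20. The related convertase gene PCSK5 had 111 and 0 counts and was at least 37.3-fold lower (exact lower limit 29.8). SERPINB2, the gene of an inhibitor of urokinase, had 0 and 48 counts and was at least 15.9-fold higher (exact lower limit 12.4). PLAU, the gene of the activator urokinase, had 10 and 28 counts and was 2.78-fold higher (1.31 to 6.41). The surface protease genes HPN (80 and 13 counts) and ST14 (1436 and 526) were lower, as was the activator gene PLAT at 18 and 7.

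Of 8 tested partners that carry ADAM10 and ADAM17 through the cell, 1 was higher and 1 lower (12.5% each way, near the share over all genes), with a median log2 ratio of 0.00. TSPAN14, the most abundant tetraspanin partner of ADAM10, had 3655 and 3680 counts. TSPAN15, the tetraspanin that directs ADAM10 to cadherins, had 1754 and 698 counts and was 2.53-fold lower (2.32 to 2.77). TSPAN5, under 1 CPM in the parental line, had 12 and 27 counts and was 2.23-fold higher (1.09 to 4.84).

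Inhibitors outside the TIMPs, together with inducers and clearance receptors of MMPs, had 5 of 9 tested genes higher (55.6%) and 1 lower (11.1%), with a median of 1.20. RECK and LCN2 were under 1 CPM in the parental line and entered through the resistant library. TFPI2, a matrix inhibitor of plasmin and other serine proteases, was 19.6-fold higher (18.1 to 21.2), from 659 to 12997 counts. SPOCK2, a proteoglycan gene whose protein affects membrane-type MMPs, was 7.49-fold higher (7.02 to 7.99), and its relative SPOCK1 was 4.52-fold lower (4.05 to 5.06). RECK, a membrane-anchored MMP inhibitor, had 0 and 28 counts and was at least 9.26-fold higher (exact lower limit 7.04). THBS1, whose product binds MMPs for uptake, was 2.63-fold higher (2.46 to 2.81), and LCN2, whose product binds MMP9, had 14 and 33 counts. BSG, the MMP inducer also called EMMPRIN and named after its values were seen, had 7245 and 6843 counts.

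Among relatives of the ADAMs and astacins, 1 of 2 tested genes was higher and 0 lower. TLL1, a procollagen C-proteinase gene, went from 7 to 564 counts and was 79.9-fold higher (38.5 to 200). TLL1 was under 1 CPM in the parental line, so the filter fixed its direction. BMP1, the founding member of that group and by mean CPM the most abundant one here, had 768 and 464 counts and a ratio of -0.74.

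Proteins that ADAM10 or ADAM17 are known to shed had 5 of 25 tested genes higher and 4 lower, against 12.1% and 8.29% of all tested genes, with a median of 0.06. ICAM1 was under 1 CPM in the parental line. L1CAM, an adhesion molecule gene, had 31 and 4156 counts and was 133-fold higher (93.5 to 196). The stress ligand genes MICA, with 25 and 522 counts, and MICB, with 158 and 878, were higher too, and ICAM1 had 2 and 49. MICA and MICB resemble each other closely and their split is uncertain. TGFA, the EGF receptor ligand released by ADAM17, was 4.60-fold lower (4.12 to 5.15), and the desmosomal cadherin gene DSG2 was 2.98-fold lower (2.89 to 3.08). Other EGF receptor ligands of the list, named after their values were seen, differed from TGFA in size or direction. AREG was lower with 51 and 21 counts. EREG, HBEGF and BTC did not pass, with log2 ratios of -0.37, 0.87 and 0.82, and EGF was under 1 CPM in both libraries. Neither ADAM10 nor ADAM17 RNA passed the rule, while RNAs of the listed substrates, which were not split by enzyme, lay on both sides. Of 14 AP-1 and ETS factor genes, 0 were higher and 1 lower, namely FOS with 215 and 88 counts. FOSL1, by mean CPM the most abundant of that list though below JUNB in the parental line, had 1297 and 2389 counts and a ratio of 0.87.

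**Figure D5:**
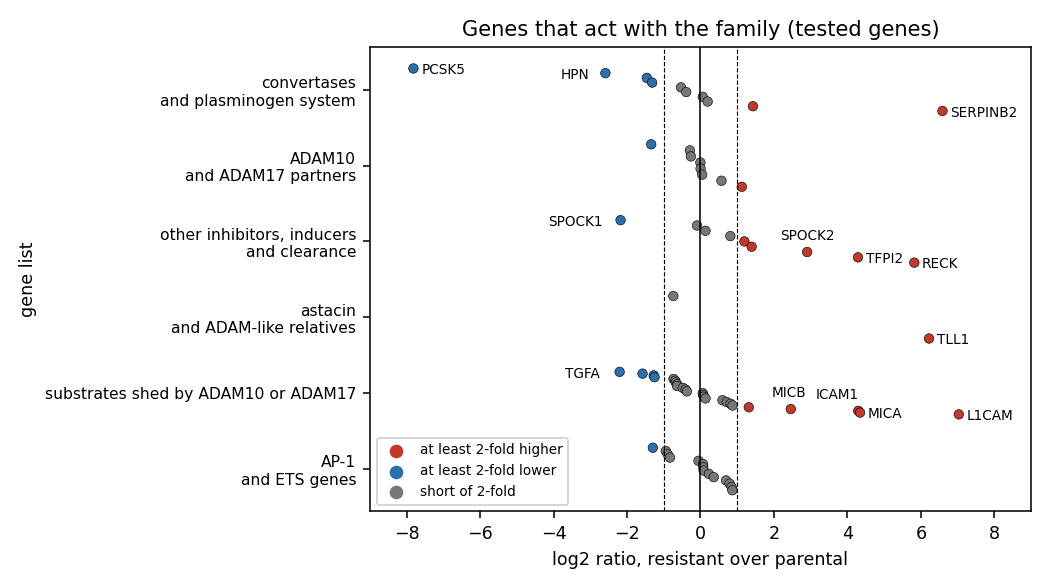
Log2 ratio of resistant over parental for the tested genes of 6 lists of genes that act with the family, with dashed lines at 2-fold; genes at 2 or more in size are labelled. The position of PCSK5, SERPINB2 and RECK, which had 0 counts in 1 library, depends on the 0.5 added to the counts.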

How the data were processed

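RNA of 1 parental and 1 resistant library was compared. TRIzol extraction and TruSeq library preparation are stated per the labels' protocols. The authors deposited raw counts per gene symbol, per the file headers. Per the submitters' processing notes, FastQC and STAR were used and GRCh38 and hg19 are both named; the counting program, its annotation and its strand setting are not given in the sources used here. The deposited table also holds normalized log2 values, whose method is not stated. These served for levels per length and as an alternative.

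Libraries were scaled by TMM (edgeR 4.0.16, R 4.3.3), to effective sizes of 16834058 and 16974207. Intervals are conditional binomial (Clopper-Pearson, scipy 1.17.1, 95%) and cover counting error only, since reads are not independent molecules. A fold against 0 counts was set against 3 counts per library, which leaves out the counting error of the other library; the exact limit stands beside it. A fold is the ratio of the scaled counts with nothing added. The calculation was run on simulated counts that held counting error only, which cannot show how cultures of a line vary. The genes, lists and rules were chosen with earlier results of these data known. Named were the called members, members at 10 CPM or more, the most abundant of each subfamily and all TIMPs; of each further list, the called genes (at most 6, by size of ratio) and the most abundant. ADAMs were split by textbook knowledge of the active site. Chromosomes, gene order and promoters came from RefSeq (GRCh38.p14), overlaps from GENCODE 29. 1 gene of a further list is not reported here.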

Additional observations from a re-analysis of the deposited data

How the results depend on the processing

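The 8 higher and 5 lower genes kept these counts with DESeq2 1.42.0 size factors, with total counts alone and with 1 added to each count. Without a filter 9 and 5 of 52 genes passed (11.2% and 7.23% of all genes). A filter on mean CPM, chosen after seeing the data, gave 6 and 5 of 28 (11.2% and 7.87% of all genes). When 5 CPM were required in either library, 4 were higher and 3 lower of 18 (9.38% and 7.01% of all genes). With the deposited log2 values 3 were higher (ADAM12, ADAMTS3 and TIMP4) and 2 lower (MMP17 and MMP28), and the other 8 calls fell short, at 0.94 for ADAMTS1, 0.77 for ADAM11, 0.56 for ADAM23, 0.27 for ADAMTS6, 0.16 for ADAMTS20, -0.90 for MMP19, -0.58 for ADAMTS16 and -0.32 for ADAMTSL4; these values appear to be logarithms of a level with 1 added, which shrinks differences of scarce genes. With the whole interval beyond 2-fold, 7 were higher and 3 lower, without ADAMTS20, ADAMTS16 and ADAMTSL4. With a log2 ratio of 2 or more, 6 were higher and 3 lower. Of all tested genes, 7.56% were higher and 4.83% lower by the deposited log2 values. The shares were 8.96% and 5.35% with the whole interval, and 6.32% and 2.93% with a log2 ratio of 2 or more. The median log2 ratio of 0.11 was 0.12 with DESeq2 size factors and 0.092 with total counts. It was 0.20 without a filter, 0.067 with the mean filter and 0.07 with the deposited values. Over all genes the medians of these settings were 0.012, -0.023, 0.014, -0.0063 and 0.004, in this order. No named gene changed direction under any of these settings that was computed for it. No paired analysis was possible because each group has 1 library. ADAMTS20, at 6 and 18 counts, shows the limit that depth sets, with an interval of 1.13-fold to 9.16-fold.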
